A study of Caenorhabditis elegans with 12 samples.

Results

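Small RNA reads were analysed over the C-type lectin genes of Caenorhabditis elegans, taken as every line of the deposited tables whose gene name starts with clec-. The rule used the name alone and gave 249 genes of the 42048 listed. Of these, 239 were annotated as protein-coding, 9 as pseudogenes, and 1 (clec-81) had no match in the annotation used for gene classes. Whole worms at the young mother stage were sequenced in 3 strains, the wild type N2, a double mutant of genotype meg-3(ax3055) meg-4(ax3052), called the double mutant below, in which the genes of a pair of P granule proteins of the germline are mutated, and rde-11(hj37), mutated in the gene of a zinc finger protein of the RNA interference pathway. All 3 strains were synchronized by starvation, kept at 20 °C and fed HT115 bacteria that made double-stranded RNA of 400 nt against pos-1, a maternal gene needed by the embryo, so that no group was free of this RNA interference trigger. RNA of each strain entered the library either after 5′ polyphosphatase (treated RNA) or without it (untreated RNA), which gave 6 groups of 2 libraries, and the number of worms per library and whether cultures were separate were not stated in the labels. The p-values therefore measure the spread between these libraries, which may be technical. In the double mutant, the titles name strain JH3475 for replicate 1 and JH3745 for replicate 2, with the same genotype label.

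C-type lectins are proteins built around a fold that in its classical form binds sugars with the help of calcium. Nematodes carry a large, expanded family of them, many secreted, many made in the intestine and many studied as genes that respond to infection. Small RNAs that map to such a gene are not its messenger RNA: in worms, RNA-dependent RNA polymerases copy a targeted transcript into short 22G RNAs with a 5′ triphosphate, which Argonaute proteins bind and use to silence or license the transcript. The triphosphate keeps these RNAs out of the library unless the polyphosphatase removes it, whereas microRNAs, piRNAs and primary small interfering RNAs carry a monophosphate and enter without it.

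Libraries held 3884534 to 5278777 reads assigned to genes, and levels are given in fpm (reads of a gene scaled to a common library total), so that 1 read was worth 0.189 to 0.257 fpm. The mutated genes were examined first through their own small RNAs. In treated RNA, meg-4 had 72.5 and 71.4 fpm in N2 against 0 and 0.379 fpm in the double mutant, and meg-3 had 9.78 and 14.3 fpm against 1.06 and 1.33 fpm. Small RNAs of rde-11 stood at 636 and 631 fpm in N2 and at 744 and 758 fpm in rde-11, which checks no label, because the mutated gene can still be a template. They reached 4359 ± 10.9 fpm (SD, n = 2 libraries) in the double mutant. The pos-1 small RNAs of treated RNA were 8292 ± 668 fpm in N2, 2448 ± 464 fpm in the double mutant and 1214 ± 138 fpm in rde-11. Whole worms were used, so fewer cells of a type and less small RNA per cell cannot be told apart in any value below.

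Few C-type lectin genes carried many small RNAs. Of the 249 genes, 42 had 0 reads in all 12 libraries, 202 had a read in some treated library and 88 in some untreated library. In treated RNA of N2, 78 genes (31.3%) reached 1 fpm, against 57.0% of the 19574 protein-coding genes, and 10 genes (4.02%) reached 10 fpm, against 32.1%. The median gene of the family stood at 0.358 fpm there and the median protein-coding gene at 1.96 fpm, so the family as a whole lay below other protein-coding genes on this scale, which is not corrected for length.

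Small RNAs of the family summed to 607 and 620 fpm in treated RNA of N2, to 480 and 445 fpm in the double mutant and to 489 and 477 fpm in rde-11. Both mutants thus lay below N2 with no overlap, although an exact permutation test of 2 against 2 libraries cannot go below a two-sided p of 0.333. A few genes made up much of the sum. The 3 highest genes held 34.7% of it in N2 and the 10 highest held 55.2%, and clec-12 alone held 16.4% in N2, 1.11% in the double mutant and 22.9% in rde-11. Without clec-12 the sums were 513 ± 10.5 fpm in N2, 457 ± 24.0 fpm in the double mutant and 373 ± 7.85 fpm in rde-11 (SD, n = 2 each), so that the rde-11 libraries then lay below those of the double mutant, whereas with clec-12 the sums of the mutants overlapped. In untreated RNA the family summed to 101 ± 18.7 fpm in N2, 86.4 ± 3.66 fpm in the double mutant and 80.7 ± 1.31 fpm in rde-11.

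The highest level was that of clec-12, on chromosome I, with 101 and 99.5 fpm in treated RNA of N2. It was followed by clec-119, on chromosome II, with 67.04 and 66.60 fpm, and clec-90, on chromosome I, with 42.6 and 48.7 fpm. The lead of clec-12 did not rest on its length: per kilobase of annotated exon, its level in treated N2 was 77.0 fpm, that of clec-119 was 34.7 fpm and that of clec-90 was 31.1 fpm. Below these came clec-238 of chromosome V with 30.6 and 25.5 fpm in treated N2, clec-166 of chromosome IV with 20.6 and 22.2 fpm, and clec-87 of chromosome I with 17.5 and 21.2 fpm. These 6 genes had the highest means in treated N2. The rest of the 10 highest by the mean of all treated libraries were clec-157 of chromosome III (12.4 and 21.0 fpm), clec-41 of chromosome V (15.1 and 14.6 fpm), clec-125 of chromosome II (13.2 and 14.6 fpm) and clec-108 of chromosome I (10.6 and 12.7 fpm), all in treated N2. Ranked per kilobase over all treated libraries, 9 of these 10 stayed among the 10 highest, and clec-91, at 10.5 fpm per kilobase, took the place of clec-41, at 4.74 fpm per kilobase. Whether counting used strand is not stated in any source used here, so reads of overlapping genes cannot be told apart: clec-90 overlaps glo-2, which encodes a protein of gut granule formation, on the same strand, clec-87 overlaps iars-2, a gene for an isoleucyl-tRNA synthetase, on the opposite strand, and clec-119 overlaps the piRNA gene 21ur-12864.

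**Figure D1:**
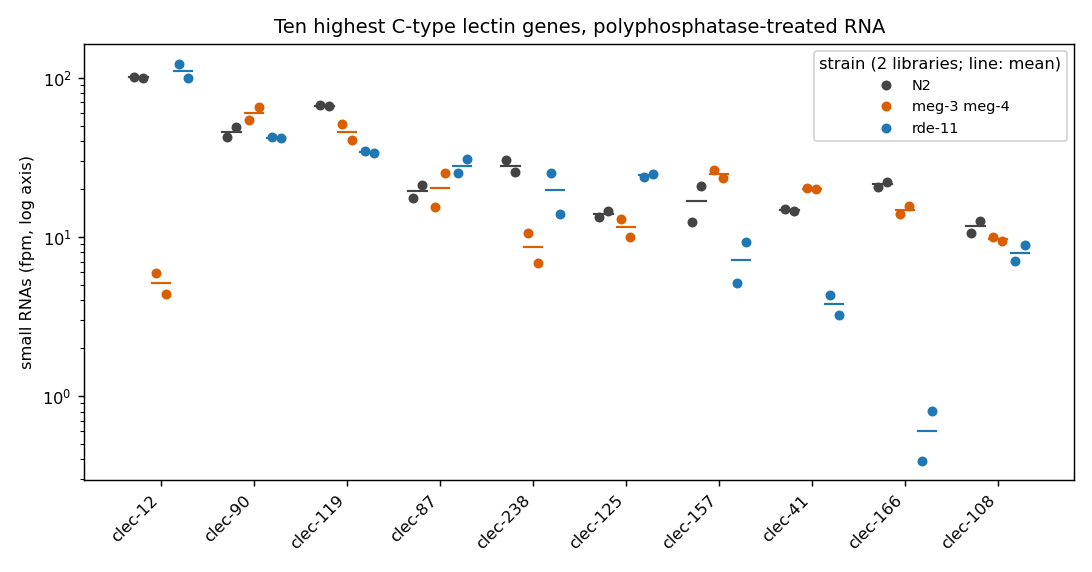
Small RNA level in fpm (log axis) of the 10 C-type lectin genes with the highest mean over treated libraries, in treated RNA of N2, the double mutant and rde-11. Points are the 2 libraries of a strain and lines their means. The double mutant is labelled meg-3 meg-4. clec-12 is lowest there (5.92 and 4.36 fpm), and clec-166 is lowest in rde-11 (0.393 and 0.805 fpm).

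The first comparison asked which of these genes gained or lost small RNAs in the double mutant in treated RNA. A gene entered the test when its 4 libraries averaged 1 fpm or more, which 72 of the 249 did. limma on log2(fpm + 1), with Benjamini-Hochberg adjustment over all 16253 genes tested and a call at an adjusted p under 0.05, called 2 of the 72 lower, clec-12 and clec-238, and 0 higher. Over all genes tested, 6.72% were called lower and 1.54% higher, so the share of C-type lectin genes called was not above the background. Their median change was -0.06 on the log2 scale against -0.13 for all genes tested, where genes with at least 50 fpm had a median change of -0.02 and microRNAs of that level 0.24. At an unadjusted p under 0.05 limma had 1 of the 72 higher and 11 lower, beside 3141 of all 16253 genes tested in either direction. At the adjusted threshold, edgeR and DESeq2 on the recovered reads also called 0 higher and 2 lower. These fits took same-numbered libraries as unpaired. A limma fit with a replicate block, given at the end, called more C-type lectin genes lower, and 2048 of all 16253 genes lower.

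clec-12 stood at 101 and 99.5 fpm in N2 and at 5.92 and 4.36 fpm in the double mutant, while the rde-11 libraries held 122 and 99.1 fpm. The N2 and rde-11 libraries were thus alike in level and both double mutant libraries lay far below them. The mean of N2 was 19.5-fold that of the double mutant, and clec-12 fell by 4.06 on the log2 scale (SE 0.24, limma adjusted p = 1.2e-04). It was called without each of the 4 libraries in turn, and the log2 change ran from -4.31 to -3.87 over all alternatives. In rde-11 the change was 0.13 (SE 0.15, limma adjusted p = 0.634). The direct comparison of the mutants gave -4.19 for the double mutant against rde-11 (SE 0.21, limma adjusted p = 3.7e-06).

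No tested gene beside clec-12 was called. sygl-1, a Notch target of the germline stem cells, had 17.7 fpm in N2 and 26.0 fpm in the double mutant (limma adjusted p = 0.710). pars-2, which encodes a prolyl-tRNA synthetase, had 17.7 fpm and 14.2 fpm (adjusted p = 0.663), and T27F6.1 had 13.8 fpm and 6.97 fpm, a change of -0.90 on the log2 scale in the same direction as clec-12 (adjusted p = 0.118). A p that misses the threshold does not show that these genes kept their level.

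clec-238 had 30.6 and 25.5 fpm in N2 and 10.6 and 6.82 fpm in the double mutant. It fell by 1.61 on the log2 scale (SE 0.28, limma adjusted p = 0.0119), a mean 3.23-fold higher in N2. The call was lost without N2 replicate 1, where the adjusted p was 0.0629. The rde-11 libraries held 25.4 and 13.9 fpm, of which the second lay between the N2 and the double mutant values. Its tested neighbour fbxa-111 had 2.52 fpm in N2 and 4.47 fpm in the double mutant (adjusted p = 0.247).

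In treated RNA of rde-11, more C-type lectin genes lost small RNAs than gained them, led on the log2(fpm + 1) scale by clec-166, clec-41 and clec-51. Of 68 C-type lectin genes tested, limma called 13 lower and 2 higher, whereas over all 16491 genes tested 4.48% were called lower and 6.34% higher. The 13 lower genes were 19.1% of those tested and the 2 higher genes 2.94%. The median change of the 68 genes was -0.37 on the log2 scale against 0.11 for all genes tested, and 47 of the 68 (69.1%) had a negative change against 39.7% of all. Genes with at least 50 fpm had a median change of 0.23 in this comparison and microRNAs of that level -0.09, so the sign of a small change depends on the scale. With libraries centred on the former, 19 C-type lectin genes were called lower and 1 higher, and with libraries centred on microRNAs, 10 lower and 2 higher. Over all 16491 genes tested, the first of these scalings called 1514 lower and 555 higher, and the second 489 lower and 799 higher. Both mutants were compared with the same N2 libraries.

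The largest change was at clec-166, which had 20.6 and 22.2 fpm in N2, 13.95 and 15.53 fpm in the double mutant and 0.393 and 0.805 fpm in rde-11. The rde-11 values were only 2 and 4 reads. It fell by 3.82 on the log2 scale (SE 0.26, limma adjusted p = 1.1e-06), and its mean in rde-11 was 0.0280 of that in N2. In the double mutant the change was -0.51 (limma adjusted p = 0.291).

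clec-41 encodes a lectin whose product has been reported to act against Bacillus thuringiensis. It had 15.1 and 14.6 fpm in N2, 20.3 and 19.9 fpm in the double mutant and 4.32 and 3.22 fpm in rde-11. The 3 strains did not overlap, and the rde-11 libraries were the low ones. It fell by 1.74 on the log2 scale in rde-11 (SE 0.24, limma adjusted p = 5.4e-04), to 0.255 of the N2 mean. The change in the double mutant did not pass the test (0.42 on the log2 scale, limma adjusted p = 0.402).

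clec-119 had 67.04 and 66.60 fpm in N2, 50.9 and 40.4 fpm in the double mutant and 34.8 and 33.6 fpm in rde-11. Here, too, the 3 strains kept apart, with N2 highest. It fell by 0.95 on the log2 scale in rde-11 (SE 0.16, limma adjusted p = 0.0024), to 0.512 of the N2 mean, and the change of -0.55 in the double mutant did not pass the test (adjusted p = 0.221). clec-166, clec-41 and clec-119 were the 3 genes that kept the call under every alternative tried, including DESeq2, the test without a filter on low values and each left-out library.

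The other 10 lower genes had N2 means of 3.28 to 16.7 fpm. clec-51 had 3.26 and 3.82 fpm in N2 and 0.590 and 0.201 fpm in rde-11, or 3 reads and 1 read, and fell by 1.71 on the log2 scale (limma adjusted p = 0.0053). It overlaps faah-1, a gene for a fatty acid amide hydrolase, on the opposite strand. clec-7 had 4.89 and 6.21 fpm in N2 and 1.77 and 1.21 fpm in rde-11 and fell by 1.40 (limma adjusted p = 0.0089). Like the 3 genes above, both were called without each library in turn.

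The remaining 8 were smaller or less stable. clec-265, on chromosome X, had 4.48 and 5.49 fpm in N2 and 1.57 and 1.01 fpm in rde-11 and fell by 1.39 on the log2 scale (limma adjusted p = 0.0101). clec-157 had 12.4 and 21.0 fpm in N2 and 5.11 and 9.26 fpm in rde-11, and fell by 1.12 (limma adjusted p = 0.0301). clec-150, which overlaps the noncoding gene R06B10.8 on the opposite strand, fell by 0.92 from 7.40 to 3.49 fpm (limma adjusted p = 0.0437). clec-120 and clec-44 are annotated as pseudogenes. Their N2 means of 3.28 and 6.23 fpm fell to 0.997 and 2.49 fpm in rde-11 (limma adjusted p = 0.0369 and 0.0244), and clec-44 stood at 2.36 fpm in the double mutant too, where it missed the threshold (adjusted p = 0.0658). The others, clec-66, clec-65 and clec-73, are taken up below with their neighbours.

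The 2 higher genes were clec-91 and clec-125. clec-91 had 5.09 and 6.44 fpm in N2 and 11.4 and 13.7 fpm in rde-11, and rose by 1.00 on the log2 scale (SE 0.23, limma adjusted p = 0.0172). It overlaps the protein-coding gene ZK858.8 on the opposite strand. clec-125 had 13.2 and 14.6 fpm in N2 and 23.8 and 25.0 fpm in rde-11 and rose by 0.77 (SE 0.19, limma adjusted p = 0.0243). That call was lost with libraries centred on the median gene of at least 50 fpm (adjusted p = 0.0708).

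Of the 15 calls in rde-11, 10 depended on a single library. Without rde-11 replicate 2, the calls at clec-265, clec-66, clec-65, clec-120, clec-44, clec-73, clec-125 and clec-91 were lost, with limma adjusted p between 0.0520 and 0.213. Without rde-11 replicate 1 those at clec-157, clec-120, clec-44, clec-73, clec-150 and clec-125 were lost, without N2 replicate 1 those at clec-65, clec-120, clec-44, clec-150, clec-125 and clec-91, and without N2 replicate 2 those at clec-157, clec-73 and clec-150. edgeR called all 15 and DESeq2 called 4, clec-166, clec-41, clec-119 and clec-157, giving no adjusted p for 3 of the others. The authors' deposited table also calls those 4 lower, and no C-type lectin gene higher.

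**Figure D2:**
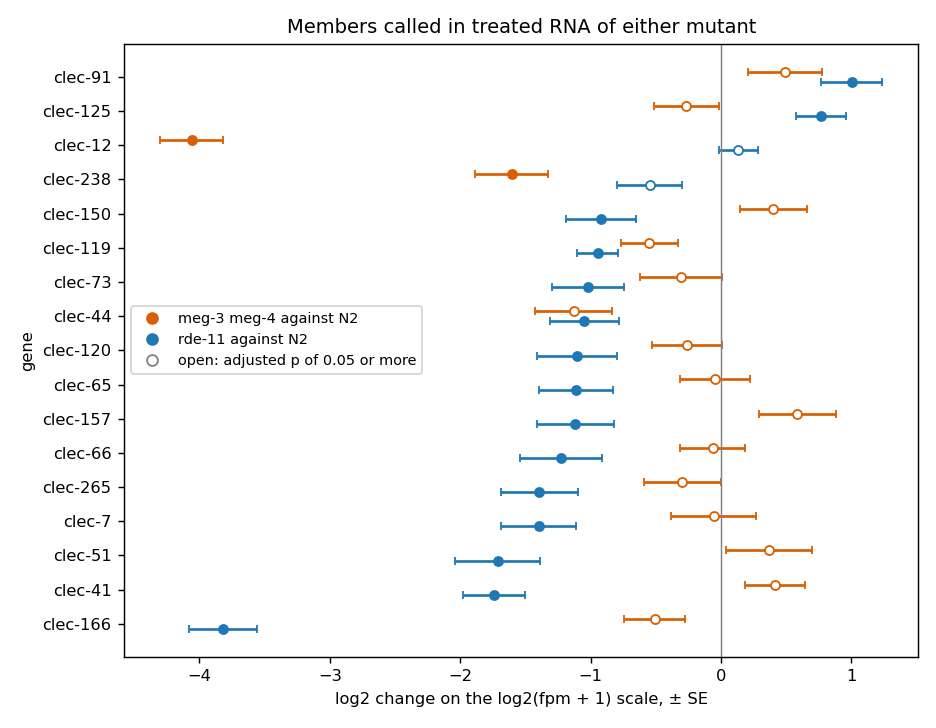
Change against N2 in treated RNA, on the log2(fpm + 1) scale with its standard error, of the 17 C-type lectin genes called in either mutant. Filled points passed the limma test and open points did not. clec-12 and clec-238 are filled for the double mutant (meg-3 meg-4) only, at -4.06 and -1.61, and the other 15 for rde-11 only, led by clec-166 at -3.82.

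None of the 2 genes called in the double mutant was among the 15 called in rde-11, and since a gene may pass in one mutant and miss in the other without differing between them, the mutants were compared directly over the 6 treated libraries. Of 71 C-type lectin genes tested, 12 were higher in the double mutant than in rde-11 and 4 were lower. Over all 16340 genes, 4.55% were higher and 12.6% lower. The median change was 0.23 on the log2 scale against -0.28 for all genes tested. This split depended on the scale: genes with at least 50 fpm had a median change of -0.35 and microRNAs of 0.38. Centring on the former gave 21 higher and 1 lower, against 1293 higher and 825 lower over all 16340 genes. Centring on microRNAs gave 7 higher and 6 lower, against 360 higher and 2581 lower over all genes.

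Of the 16 genes, 10 were also called between rde-11 and N2. Among the genes higher in the double mutant than in rde-11, the largest differences were at clec-166 (3.31 on the log2 scale, SE 0.24, limma adjusted p = 2.5e-05), clec-41 (2.15, SE 0.22, adjusted p = 2.3e-04), clec-51 (2.08, SE 0.33, adjusted p = 0.0030) and clec-157 (1.70, SE 0.32, adjusted p = 0.0072). clec-157 had 26.2 and 23.5 fpm in the double mutant and 5.11 and 9.26 fpm in rde-11, and its N2 libraries, at 12.4 and 21.0 fpm, lay between them. Smaller differences in the same direction, from 1.02 to 1.57, were called at clec-80, clec-7, clec-150, clec-84, clec-66, clec-265, clec-65 and clec-50. clec-80, clec-84 and clec-50 were not called against N2 in either mutant. clec-84 had 1.90 and 1.33 fpm in the double mutant and 0 reads and 1 read in rde-11.

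The 4 genes that were lower in the double mutant than in rde-11 were clec-12, clec-171, clec-169 and clec-125. clec-171 had 2.54 and 3.03 fpm in the double mutant, 4.89 and 4.77 fpm in N2 and 7.27 and 8.05 fpm in rde-11. The strains did not overlap, with N2 in the middle (-1.20 on the log2 scale between the mutants, SE 0.23, limma adjusted p = 0.0083). clec-169 had 2.75 and 2.08 fpm in the double mutant and 7.86 and 5.64 fpm in rde-11, where N2 held 7.74 and 5.25 fpm (-1.17, SE 0.28, adjusted p = 0.0215). Of the 16 genes called between the mutants, edgeR called 13 and DESeq2 8, giving no adjusted p for 1. Of the 4 lower genes, DESeq2 and median gene centring each kept the call at clec-12 only. Calls without each of the 6 libraries held at clec-12, clec-166, clec-41 and clec-51. The other 12 were lost without at least 1 library, all of them without rde-11 replicate 1 or rde-11 replicate 2, with limma adjusted p up to 0.208.

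C-type lectin genes often lie side by side. By the gene order of assembly WBcel235, 174 of the 249 genes fell into 54 groups in which neighbours were at most 5 genes apart, 74 stood alone, and the largest group held 13. Chromosome V held 90 of the genes, IV 53, II 51, I 36, III 15 and X 3. Small RNAs within a group were unequal. In the chromosome IV group of clec-165 to clec-170, clec-166 had a mean of 21.4 fpm in treated N2 and clec-169 had 6.50 fpm. There, clec-170 stood at 1.12 fpm, and clec-165, clec-167 and clec-168 at 0.629, 0.119 and 0 fpm. clec-166 and clec-169 also behaved differently across strains, the former low in rde-11 and the latter low in the double mutant, where its change against N2 missed the threshold (-1.12 on the log2 scale, limma adjusted p = 0.0611).

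In the chromosome II group of clec-62 to clec-66, clec-65 and clec-66 are neighbours and moved alike. clec-65 had 4.48 and 4.30 fpm in N2, 3.59 and 4.93 fpm in the double mutant and 1.57 and 1.41 fpm in rde-11, and fell by 1.11 on the log2 scale in rde-11 (SE 0.28, limma adjusted p = 0.0253). clec-66 had 4.89 and 5.25 fpm in N2, 5.07 and 4.55 fpm in the double mutant and 2.36 and 1.01 fpm in rde-11, and fell by 1.22 (SE 0.31, adjusted p = 0.0262). For both genes the rde-11 libraries were the low ones, and those of N2 and the double mutant overlapped. clec-63 of the same group went from 3.64 ± 0.251 to 1.89 ± 0.173 fpm (SD, n = 2 each) and missed the threshold (limma adjusted p = 0.148). No C-type lectin gene that averaged 1 fpm or more in treated RNA had the same values as another line of the table in all libraries.

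**Figure D3:**
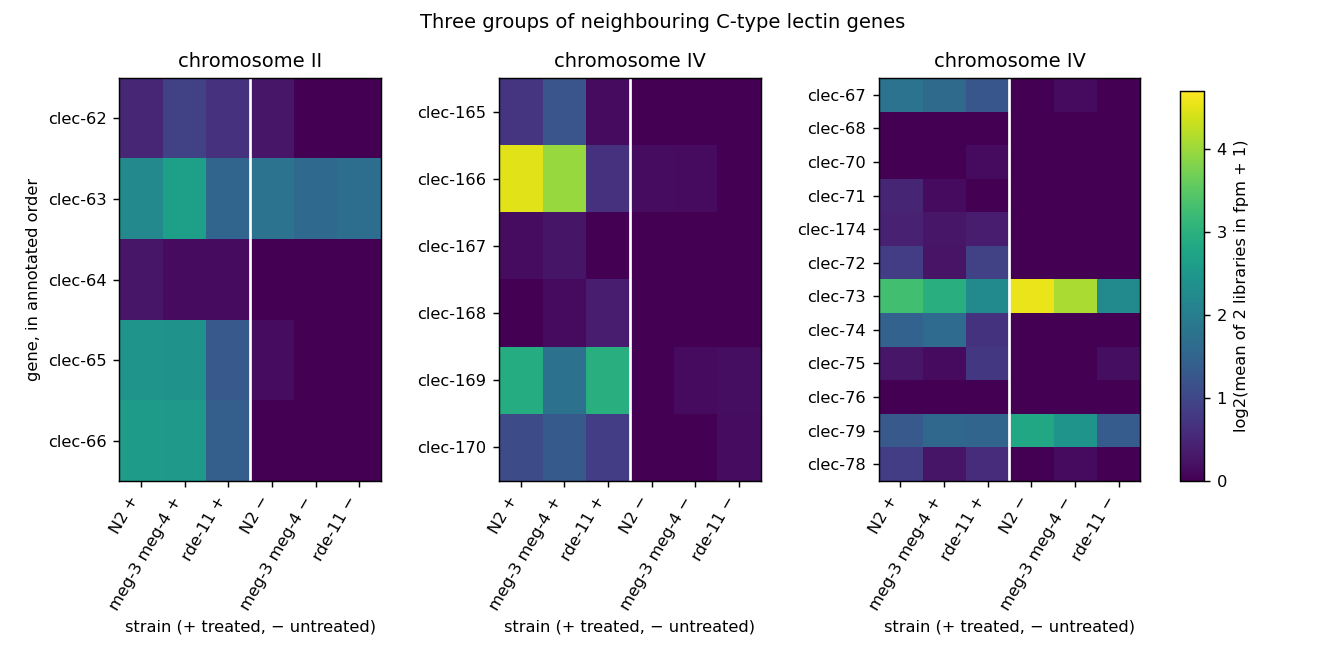
Mean level of 2 libraries, as log2(fpm + 1), of the genes of 3 groups of neighbouring C-type lectin genes, in annotated order, in treated (+) and untreated (−) RNA of each strain. Within each group few genes stand out, such as clec-166 in treated RNA of N2 and the double mutant and clec-73 in untreated RNA of the same strains, beside genes at or near 0.

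The comparison of treated with untreated RNA of N2 asked which C-type lectin genes had small RNAs that entered the library without the enzyme. Of 58 genes tested, limma called 44 higher in treated RNA and 7 lower, against 57.0% higher and 35.4% lower over all 16869 genes tested, with a median change of 2.12 on the log2 scale against 1.86 for all genes. These changes are shifts in shares of a library whose make-up the enzyme alters. Genes with at least 50 fpm had a median change of 4.86 and microRNAs of -1.72, and relative to the former the split turned to 1 higher and 52 lower. Over all 16869 genes tested, that scaling called 1544 higher and 12832 lower.

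clec-12 was called higher under every setting tried. It had 101 and 99.5 fpm in treated N2 and 0.438 and 0 fpm, that is 2 reads and 0 reads, in untreated N2 (6.40 on the log2 scale, SE 0.25, limma adjusted p = 1.2e-05). clec-238, clec-125 and clec-108 had 0 reads in all 6 untreated libraries, which allows up to 3 reads in each by counting error, or 0.597 to 0.772 fpm. Of the 79 genes with at least 1 fpm in treated or untreated N2, 41 had 0 reads in untreated N2 and 12 were higher in untreated N2.

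**Figure D4:**
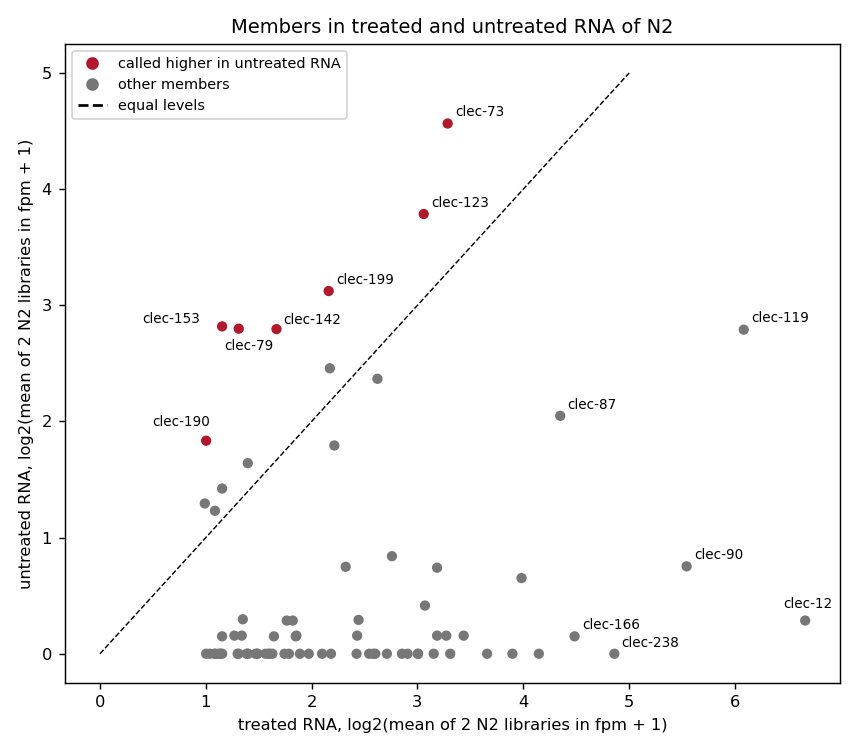
Each point is 1 of the 79 C-type lectin genes with at least 1 fpm in treated or untreated N2, placed by its mean level in treated (horizontal) and untreated (vertical) RNA of N2, both as log2(fpm + 1). The dashed line marks equal levels. The 7 genes called higher in untreated RNA (red) lie above it, led by clec-73, and clec-12 lies at the far right near 0 on the vertical axis.

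The 7 genes with the larger share in untreated RNA were clec-73, clec-123, clec-199, clec-153, clec-79, clec-142 and clec-190. clec-73, on chromosome IV, had 18.6 and 26.7 fpm in untreated N2 and 6.52 and 10.98 fpm in treated N2 (-1.30 on the log2 scale, SE 0.32, limma adjusted p = 0.0094). clec-123, on chromosome II, had 10.5 and 15.1 fpm in untreated N2 and 6.32 and 8.35 fpm in treated N2 (-0.72, SE 0.26, adjusted p = 0.0409). clec-153, on chromosome III, had 5.26 and 6.85 fpm against 1.02 and 1.43 fpm (-1.66, SE 0.23, adjusted p = 9.3e-04). In each of the 3 genes the untreated libraries lay above the treated ones. clec-153 was the only one of the 7 that was called without each of the 4 libraries. clec-142 (5.94 fpm untreated, 2.18 fpm treated), clec-199 (7.71 and 3.47 fpm), clec-79 (5.96 and 1.48 fpm) and clec-190 (2.57 and 1.00 fpm) made up the rest. The calls at clec-73, clec-79, clec-142 and clec-123 were lost without either treated N2 library, those at clec-199 and clec-190 without N2 treated replicate 1, that at clec-190 also without N2 untreated replicate 1 and that at clec-123 also without N2 untreated replicate 2, with limma adjusted p up to 0.272. DESeq2, which sets its own scale, called 1 of the 7, clec-153. Means of untreated libraries were above those of treated libraries for all 7 genes in the double mutant and for 6 of the 7 in rde-11. The exception in rde-11 was clec-79, at 1.59 fpm untreated and 1.90 fpm treated. Of the other 6, clec-73 had practically equal means in rde-11, at 3.69 fpm untreated and 3.68 fpm treated. clec-153 overlaps pfas-1, a gene of purine synthesis, on the opposite strand, and clec-199 and clec-190 overlap piRNA genes, whose RNAs enter the library without the enzyme. The part of these overlaps in the values was not tested.

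In untreated RNA, the levels of C-type lectin genes were low and few genes could be tested. Of 16 genes tested between the double mutant and N2, limma called 0. At an unadjusted p under 0.05 stood 0 of the 16, beside 1074 of all 10902 genes tested. edgeR and DESeq2 also called 0. Over all 10902 genes tested 0.119% were called higher and 0.119% lower. The median change was -0.18 on the log2 scale against -0.19 for all genes, and the changes ran from -0.45 at clec-73 to 0.08 at clec-151.

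Between rde-11 and N2 in untreated RNA, limma called 2 of 17 genes lower, clec-73 and clec-79, and 0 higher, against 0.198% lower and 0.396% higher over all 11629 genes tested. For higher calls, 1 of the 17 had an unadjusted limma p under 0.05, and edgeR and DESeq2 called 0. Over all 11629 genes tested, 1291 were under that unadjusted p in either direction. clec-73 had 18.6 and 26.7 fpm in N2, 17.3 and 14.9 fpm in the double mutant and 3.01 and 4.38 fpm in rde-11. The rde-11 libraries lay below all others, and those of the double mutant lay just below N2. It fell by 2.33 on the log2 scale in rde-11 (SE 0.30, limma adjusted p = 1.9e-11), to 0.163 of the N2 mean. The size of that p comes from a fit that gave every gene of the comparison the trend's spread. edgeR on the recovered reads gave an adjusted p of 2.4e-05, and limma without N2 replicate 1 or without N2 replicate 2 gave 0.183 and 0.208. The authors' deposited table calls clec-73 as well, and no other C-type lectin gene in untreated RNA.

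clec-73 fell in treated RNA of rde-11, too. It had 6.52 and 10.98 fpm in N2 and 3.54 and 3.83 fpm in rde-11, a fall by 1.02 on the log2 scale (SE 0.28, limma adjusted p = 0.0338). It was the only one of the 15 genes called in treated RNA of rde-11 that was also called in untreated RNA. Its nearest neighbours on chromosome IV, clec-72 and clec-74, had 0 reads in untreated N2 and rde-11.

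clec-79 lies in the same group as clec-73. It had 4.38 and 7.54 fpm in untreated N2, 3.58 and 5.18 fpm in the double mutant and 2.15 and 1.03 fpm in rde-11. The fall by 1.42 on the log2 scale in rde-11 (SE 0.37, limma adjusted p = 0.0268) was not called without any 1 of the 4 libraries (adjusted p 0.0766 to 0.865), nor by edgeR (0.0559) or DESeq2 (0.560). In treated RNA clec-79 had 1.48 fpm in N2, 1.98 fpm in the double mutant and 1.90 fpm in rde-11, so it was not lower in rde-11 there.

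**Figure D5:**
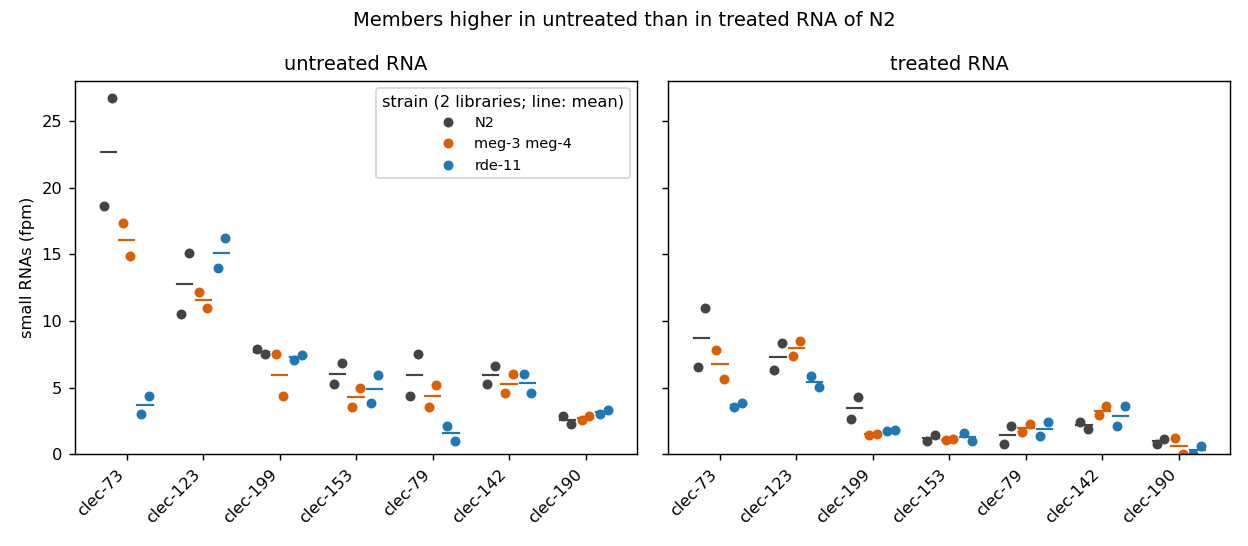
Level in fpm of the 7 C-type lectin genes called higher in untreated than in treated RNA of N2, in untreated (left) and treated (right) RNA. Points are the 2 libraries of a strain and lines their means. clec-73 stands out in untreated RNA with 18.6 and 26.7 fpm in N2 against 3.01 and 4.38 fpm in rde-11.

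Genes with a reported part in immunity were counted as a group, with lists taken from general knowledge. Of 17 C-type lectin genes named in infection or p38 studies, 7 had enough small RNAs in treated RNA to be tested. None of the 7 was called in the double mutant. There, 2 of the 7 had an unadjusted limma p under 0.05, beside 3141 of all 16253 genes tested. In rde-11, 2 of the 7, clec-41 and clec-66, were called lower. Over all genes tested, 4.48% were called lower in rde-11 and 6.72% in the double mutant. The median change of the 7 was -0.10 on the log2 scale in the double mutant, against -0.13 for all genes tested. In rde-11 it was -0.37, against 0.11. With 7 genes, these counts say little about the list. The other 5 were clec-4, clec-17, clec-29, clec-67 and clec-85. Among them clec-17 had 5.30 and 3.58 fpm in N2 and 1.48 and 1.70 fpm in the double mutant, which missed the threshold (limma adjusted p = 0.0768), and clec-85 had 8.76 and 9.07 fpm against 5.50 and 3.98 fpm (adjusted p = 0.129). No gene of this list could be tested in untreated RNA.

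Other immune effector genes were taken as a list of 110 lysozymes, saposin-like proteins, caenacins, galectins and similar small families, of which 18 had enough small RNAs to be tested in treated RNA of the double mutant and 15 in rde-11. The galectin gene lec-12 stood at 142.2 ± 9.50 fpm in treated N2 (SD, n = 2), above every C-type lectin gene, and lec-1 at 39.02 ± 0.154 fpm. In the double mutant, limma called 0 of the 18, where 6.72% of all genes tested were lower and 1.54% higher. At an unadjusted p under 0.05 stood 2 of the 18, beside 3141 of all 16253 genes tested. In rde-11, 3 of 15 were lower and 0 higher, where 4.48% of all genes tested were lower and 6.34% higher, with a median change of -0.58 on the log2 scale against 0.11 for all genes tested. spp-4, a saposin-like gene, fell from 4.97 to 0.892 fpm (limma adjusted p = 0.0040), and the galectin genes lec-9 and lec-10 fell from 4.97 to 1.69 fpm (adjusted p = 0.0223) and from 2.06 to 0.199 fpm (adjusted p = 0.0270). The lec-10 value in rde-11 was 1 read in each library, and that of spp-4 was a few reads. Genes of this list and the next were examined in the main fit only.

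Of 20 genes of the p38 pathway and other genes of immunity, most of them regulators, 18 were tested in the double mutant and 17 in rde-11 in treated RNA. In the double mutant 1 was called higher and 3 lower, where 1.54% of all genes tested were higher and 6.72% lower, and in rde-11 2 were called higher and 3 lower, where 6.34% were higher and 4.48% lower. In the double mutant, pmk-1, the p38 kinase itself, rose from 2.33 to 7.94 fpm (limma adjusted p = 0.0175). The transcription factor genes hlh-30, related to TFEB, and daf-16, the worm FOXO, fell from 160 to 16.1 fpm (adjusted p = 3.0e-04) and from 238.4 to 84.7 fpm (adjusted p = 0.0030), and the kinase kinase gene mek-1 fell from 17.02 to 6.12 fpm (adjusted p = 0.0306). In rde-11, tpa-1, a protein kinase C gene, rose from 21.6 to 70.3 fpm (adjusted p = 1.2e-04) and skn-1, related to Nrf factors, from 51.3 to 76.5 fpm (adjusted p = 0.0375). daf-16, fshr-1 and bar-1 fell there, to 165.7, 2.18 and 1.99 fpm (adjusted p = 0.0320, 0.0121 and 0.0114). The median change of this list was 0.03 on the log2 scale in the double mutant, against -0.13 for all genes tested, and 0.13 in rde-11, against 0.11.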

How the data were processed

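Small RNA libraries of 3 strains, with and without 5′ polyphosphatase, were compared in 6 groups of 2. The authors deposited 4 tables with fpm per library (the CPM unit, per the file headers), and their own log2 fold changes and adjusted p-values. Tools named in the submitters' processing notes are cutadapt, Bowtie2, HTSeq and DESeq2, without versions, with ce10 as build. No source used here states strand, multiple placement or read length settings. The 8 columns of averages were not used. Of the fpm values above 0, 100% were whole multiples of 1 read at a tolerance of 0.01 reads, which gave recovered reads. Gene classes, exon lengths, overlaps and neighbours came from WBcel235, which is not the build of the tables, so no coordinates are given. clec-13 and clec-248 carry other current names there.

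The main test was limma 3.58.1 (R 4.3.3) with a trend on log2(fpm + 1) over all genes that averaged 1 fpm or more in the libraries compared, with Benjamini-Hochberg adjustment. Such changes understate those of low genes. edgeR 4.0.16 and DESeq2 1.42.0 on recovered reads, a pseudocount of 0.5, no filter, 2 other scalings, a replicate block and left-out libraries were alternatives. With 1 library left out, the lone library of a group is assumed to vary like the others. The fits were tested on simulated data. Floors of 3 reads cover counting error only, since reads are not independent molecules. Genes were named by a rule: those called, up to 12 per direction, the 10 highest treated levels, also per kilobase, and the 5 highest untreated levels. Neighbouring genes, genes near a threshold, genes at 0 and 2 galectin genes were added after their values were seen. The members and lists were chosen with earlier results of these data known. A planned count of sugar-binding motifs in the proteins was not run.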

Additional observations from a re-analysis of the deposited data

How the results depend on the processing

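Of 490 values of named genes recomputed under an alternative, 358 kept direction and call, 132 kept direction but lost the call and 0 turned direction. They covered 43 results, which for treated against untreated N2 were only clec-12 and the 7 genes called lower. Other genes called higher in treated N2 did turn direction with median gene centring, such as clec-119, from 3.30 to -1.19 on the log2 scale. The losses were 72 of 202 with a library left out, 22 of 39 with DESeq2, 21 of 43 without the filter on low values, 8 of 35 with microRNA centring, 5 of 43 with median gene centring, 3 of 42 with edgeR, 1 of 43 with a pseudocount of 0.5 and 0 of 43 with the replicate block.

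Counts of C-type lectin genes called moved by over 1.5 times as follows. Without the filter, rde-11 in treated RNA had 0 higher and 3 lower, rde-11 in untreated RNA 1 lower, the double mutant against rde-11 6 higher, and treated against untreated N2 88 higher. DESeq2 gave 0 higher and 4 lower, 1 lower, 1 lower (the double mutant against rde-11) and 1 lower (treated against untreated N2). edgeR gave 1 lower for rde-11 in untreated RNA and 2 lower between the mutants. Median gene centring gave 1 higher for rde-11 in treated RNA, 1 lower in untreated RNA, 21 higher and 1 lower between the mutants, and 1 higher and 52 lower for the enzyme. microRNA centring gave 7 higher between the mutants. Calls over all genes moved with the setting, too. In treated rde-11 they were 157 higher and 299 lower of 31201 without the filter, and 364 higher and 500 lower with DESeq2. Without the filter, untreated rde-11 had 4 lower of 25304 and the double mutant against rde-11 534 higher of 32689. Treated against untreated N2 had 11833 higher of 30714. DESeq2 gave 12, 734 and 2667 lower of these totals, in the same order. edgeR gave 24 lower of 8405 for untreated rde-11 and 988 lower of 14358 between the mutants. Median gene centring gave 25 lower of 11629 for untreated rde-11.

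Replicates share only a number. Same-numbered libraries deviated together over genes with r of 0.20 to 0.60. The fit with the replicate block called 8 lower in the treated double mutant, 3 higher and 17 lower in treated rde-11, and 19 higher and 6 lower between the mutants. Over all genes tested, it called 541 higher and 2048 lower of 16253 in the treated double mutant. In treated rde-11 these counts were 2909 and 1304 of 16491, and between the mutants 1124 and 4034 of 16340.

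With 1 library left out, lower calls ran from 1 to 6 and higher calls from 0 to 1 in the treated double mutant (1 lower without N2 replicate 1, 6 and 4 without double mutant replicate 1 and 2). They ran from 8 to 12 lower and 0 to 2 higher in treated rde-11 (8 lower without rde-11 replicate 2), and from 0 to 1 lower in untreated rde-11 (0 without either N2 library). Between the mutants they ran from 4 to 17 higher and 1 to 5 lower (4 and 1 without rde-11 replicate 1, 6 and 2 without rde-11 replicate 2), and for the enzyme from 29 to 53 higher and 1 to 6 lower (29 and 1 without treated N2 replicate 1). Calls over all genes tested also fell or rose with the library left out, so these ranges do not set C-type lectin genes apart. Depth limits genes of a few fpm most, at which 1 read is worth 0.189 to 0.257 fpm.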
